A study of Mus musculus with 6 samples.

Results

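Microglia from mice with BRAF V600E were set against microglia from wild-type mice, 1 library of sorted cells for each genotype. These were the 2 microglia libraries, chosen by cell type and genotype label, of 6 in a series that also held monocytes and intravascular macrophages of both genotypes. Messenger RNA was measured by sequencing full-length cDNA made from total RNA with a kit for very low input. The labels name the genotypes as BRAF V600E mutant and WT. They do not name the allele, any Cre driver or the strain, and give neither the age and number of the mice nor the number of cells, how tissue was dissociated or how cells were gated. The question was how gene expression of BRAF V600E microglia differs from that of wild-type microglia. With a single library on each side there was no replicate check, no p-value was computed, and genotype cannot be told apart from any other difference between the 2 samples.

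Microglia are the resident macrophages of the brain, and they depend on signals through the CSF1 receptor and from TGF-beta for their survival and identity. BRAF is a kinase between RAS and the MEK and ERK kinases, and the V600E substitution keeps it active without RAS. The mutation is known from Langerhans cell histiocytosis and related diseases of myeloid cells, some of which affect the brain. ERK signalling induces immediate early genes, a set of transcription factors and feedback regulators that are also known to answer growth factors, cell stress and the dissociation of tissue. NF-kB is a transcription factor that drives genes of cytokines and chemokines, and its inhibitor gene Nfkbia is among its own targets.

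Transcripts of many immediate early genes, inflammatory cytokines and chemokines were higher in the BRAF V600E library, with Fos 22.1-fold, Nfkbia 23.2-fold, Il1b 61-fold, Atf3 66.7-fold and Cxcl2 74.8-fold higher. Transcripts of the CSF1 receptor, of TGF-beta receptors, of several RAS-pathway kinases including Braf, and of the transcription factor Cebpb were lower. The differences of these receptors and of Braf were smaller once gene length was allowed for. Homeostatic microglia markers such as P2ry12 and Tmem119 were abundant in both libraries, and these 2 genes lay within 2-fold. A gene was counted as different when its counts scaled to a common library size (CPM) differed 4-fold and reached 10 CPM in the higher library. By this rule 249 of 8798 genes (2.83%) were higher in BRAF V600E microglia and 408 (4.64%) were lower. Scaling by library size alone in place of TMM factors, which are set by the bulk of genes, gave 87 higher and 1437 lower, as the median log2 ratio of these genes was -0.50 on that scale and 0.12 with TMM.

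Depth was similar in the pair, with 38815473 counts on named genes in BRAF V600E and 35375806 in wild-type microglia. The libraries differed in other ways. A set of 5 genes chosen after their values were seen, Gm23935, Lars2, Gm24270, Gm15564 and Mir6236, held 0.189% of the BRAF V600E counts and 3.41% of the wild-type counts. Mitochondrially encoded genes held 1.26% of counts in BRAF V600E and 0.570% in wild type, and the count-weighted mean gene length was 3424 bases in BRAF V600E and 4690 bases in wild type. Across 10893 genes Spearman's rho between both microglia libraries was 0.822, a description over genes that are not replicates. Xist had 0 counts in BRAF V600E and 1 in wild type, while the Y-linked Ddx3y was read at 23.5 CPM in BRAF V600E against 66.3 CPM in wild type, so reads of male cells were present in both.

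Ratios followed gene length. With genes ranked by length and cut into 5 groups of equal size, the shortest, up to 2288 bases of summed exons, had a median log2 ratio of 1.25, with 157 genes 4-fold higher and 27 lower. The longest, from 7145 bases, had a median of -0.87, with 2 genes 4-fold higher and 95 lower. Spearman's rho of ratio with length was -0.542 over 8730 microglia genes, -0.379 in monocytes and 0.182 in intravascular macrophages. Among the genes of highest GC content, 188 of 1746 (10.8%) were 4-fold lower. A log2 ratio is therefore given with its value after subtraction of the running median over genes of like length, called length-corrected. Spearman's rho of ratio with GC content in microglia was -0.090 before this correction and -0.281 after it. Length-corrected values thus tended to be lower at higher GC content, and an alternative corrected for length and GC content. The part of length or GC content in any single result was not tested. The 4-fold difference held with TMM, with library size alone, with the deposited TPM and after length correction for 46 genes higher and 146 genes lower in BRAF V600E. Gm23935 alone held 38.1% of TPM in wild-type and 1.13% in BRAF V600E microglia, which raises the TPM ratios of other genes. TPM without Gm23935, which was not among these 4 scales, gave 66 genes higher and 1543 lower.

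**Figure D1:**
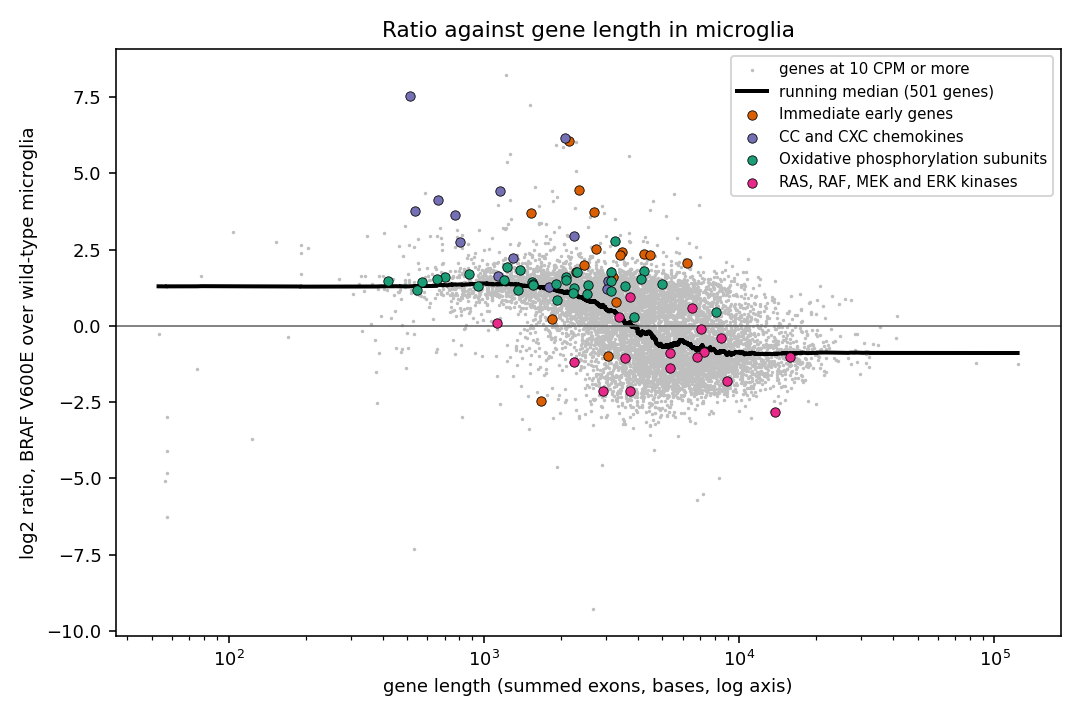
Log2 ratio of BRAF V600E over wild-type microglia against gene length (log axis) for genes at 10 CPM or more, with the running median over genes of like length as a line. Immediate early genes and chemokines lie mostly above the line at their length, oxidative phosphorylation subunits lie along it, and the medians of the shortest and the longest group of genes are 1.25 and -0.87.

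Immediate early genes showed some of the largest differences. Of 20 listed, 17 reached 1 CPM in either library, and 13 of 17 were at least 2-fold higher in BRAF V600E and 2 of 17 lower, against 27.3% higher and 24.7% lower among the 12925 genes at 1 CPM. After length correction 12 of 17 were 2-fold higher and 2 lower, where all genes gave 15.7% and 20.6%. The list median was 2.32 on the log2 scale and 2.02 length-corrected, beside 0.09 and -0.09 for all genes. Because the minimum reads the higher library, such counts and medians describe the genes read and are not a test. The 2-fold counts of every list below are to be read beside these same shares of all genes, before and after length correction.

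Atf3, a stress-induced transcription factor (ENSMUSG00000026628.13, chromosome 1, 191170296 to 191218039, minus strand), was read at 5418 CPM in BRAF V600E microglia and 81.2 CPM in wild-type microglia. This was 66.7-fold higher, with a 95% counting interval of 64.6 to 68.9, and the log2 ratio of 6.06 was 4.97 length-corrected. Gene positions are those of GENCODE M21 on mm10. Intervals cover counting error only, since they rest on the 2 read counts of 1 library a side. PCR copies were counted without molecular identifiers, so the intervals may be too narrow even for counting error. Fos, a subunit of the AP-1 transcription factor (ENSMUSG00000021250.13, chromosome 12, 85473890 to 85477273, plus strand), stood at 12476 CPM in BRAF V600E against 566 CPM in wild type, 22.1-fold (21.8 to 22.3) higher. Dusp1, a phosphatase that turns off MAP kinases, had 8334 CPM in BRAF V600E against 622 CPM in wild type, 13.4-fold (13.2 to 13.6) higher. Ier2 reached 2049 CPM in BRAF V600E against 158 CPM in wild type, and the anti-proliferative gene Btg2 reached 3781 CPM in BRAF V600E against 653 CPM in wild type. These 5 genes remained at least 1.77 on the log2 scale above wild type after length correction.

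Other AP-1 and early response genes, chosen after their values were seen, went the same way by less on the TMM scale or went against it. Egr1, an ERK-induced zinc finger factor, had 2511 CPM in BRAF V600E against 502 CPM in wild type. Zfp36, which destabilises cytokine messages, had 4436 CPM in BRAF V600E against 823 CPM in wild type. After length correction the log2 ratios of Egr1 and Zfp36 were 2.58 and 2.14, above the 1.77 of Btg2. Jun stood at 5433 CPM in BRAF V600E against 1776 CPM in wild type, a log2 ratio of 1.61 (1.135 length-corrected) that fell short of 4-fold. Junb was close to it, with a log2 ratio of 1.77 (0.78 length-corrected, 1.68 after correction for length and GC content). Jund, the AP-1 subunit usually present without stimulation, was lower, at 26 CPM in BRAF V600E against 143 CPM in wild type, 5.52-fold (5.13 to 5.93) lower. Klf4 was lower as well, at 29.7 CPM in BRAF V600E against 59.6 CPM in wild type, and Klf2 differed little, at 58.3 CPM in BRAF V600E against 50.2 CPM in wild type.

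The inhibitor, the cytokines and the chemokines of the NF-kB programme were higher with it. Of 24 NF-kB and inflammatory genes listed, 23 reached 1 CPM; 13 of 23 were 2-fold higher in BRAF V600E and 1 of 23 lower, with a median of 1.57 (1.10 length-corrected). Nfkbia, which encodes the inhibitor IkB-alpha (ENSMUSG00000021025.8, chromosome 12, 55489410 to 55492647, minus strand), had 6666 CPM in BRAF V600E against 287 CPM in wild type, 23.2-fold (22.8 to 23.7) higher. Il1b, the gene of interleukin-1 beta (ENSMUSG00000027398.13, chromosome 2, 129364570 to 129371139, minus strand), stood at 391 CPM in BRAF V600E against 6.41 CPM in wild type, 61-fold (54.3 to 68.7) higher. Tnf, the gene of tumour necrosis factor, was at 403 CPM in BRAF V600E against 26.7 CPM in wild type, 15.1-fold (14.2 to 16) higher. Il1a had 1259 CPM in BRAF V600E against 134 CPM in wild type and the prostaglandin synthase gene Ptgs2 had 10.8 CPM in BRAF V600E against 0.590 CPM in wild type, 9.41-fold and 18.2-fold higher. The genes of the NF-kB subunits, chosen after their values were seen, lay within 2-fold of wild type on the TMM scale. Rela had 72.5 CPM in BRAF V600E against 135 CPM in wild type and Nfkb2 had 15.1 CPM in BRAF V600E against 24.9 CPM in wild type, while Nfkb1 had 159.6 CPM in BRAF V600E against 126.6 CPM in wild type. Rel had 47.7 CPM in BRAF V600E against 50.2 CPM in wild type, and Relb had 19.6 CPM in BRAF V600E against 29.5 CPM in wild type. After length correction the log2 ratio was -1.69 for Rela and 1.26 for Nfkb1, and after correction for length and GC content -1.07 and 1.08.

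All 16 CC and CXC chemokine genes that reached 1 CPM, of 18 listed, were at least 2-fold higher in BRAF V600E, with a median of 2.84. Chemokine genes are short, and the length-corrected median was 1.66, with 10 of 16 still 2-fold higher and none lower. Ccl4 and Ccl3 encode chemokines that microglia release when activated: Ccl4 stood at 6551 CPM in BRAF V600E against 377 CPM in wild type and Ccl3, chosen after its values were seen, at 4288 CPM in BRAF V600E against 349 CPM in wild type. Ccl12, a mouse ligand of CCR2, had 896 CPM in BRAF V600E against 66.4 CPM in wild type, 13.5-fold (13 to 14) higher. Cxcl2, a neutrophil attractant, had 57.2 CPM in BRAF V600E against 0.765 CPM in wild type, 74.8-fold (53.6 to 108) higher. Ccl8 was at 12.5 CPM in BRAF V600E, while the wild-type library held 1 count, so that its ratio of 573-fold carries an interval of 102 to 22693. The 2-fold differences of Ccl2, at 173 CPM in BRAF V600E against 56.1 CPM in wild type, and Ccl6, at 447 CPM in BRAF V600E against 183 CPM in wild type, shrank to log2 ratios of 0.27 and 0.09 after length correction; both were chosen after their values were seen.

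**Figure D2:**
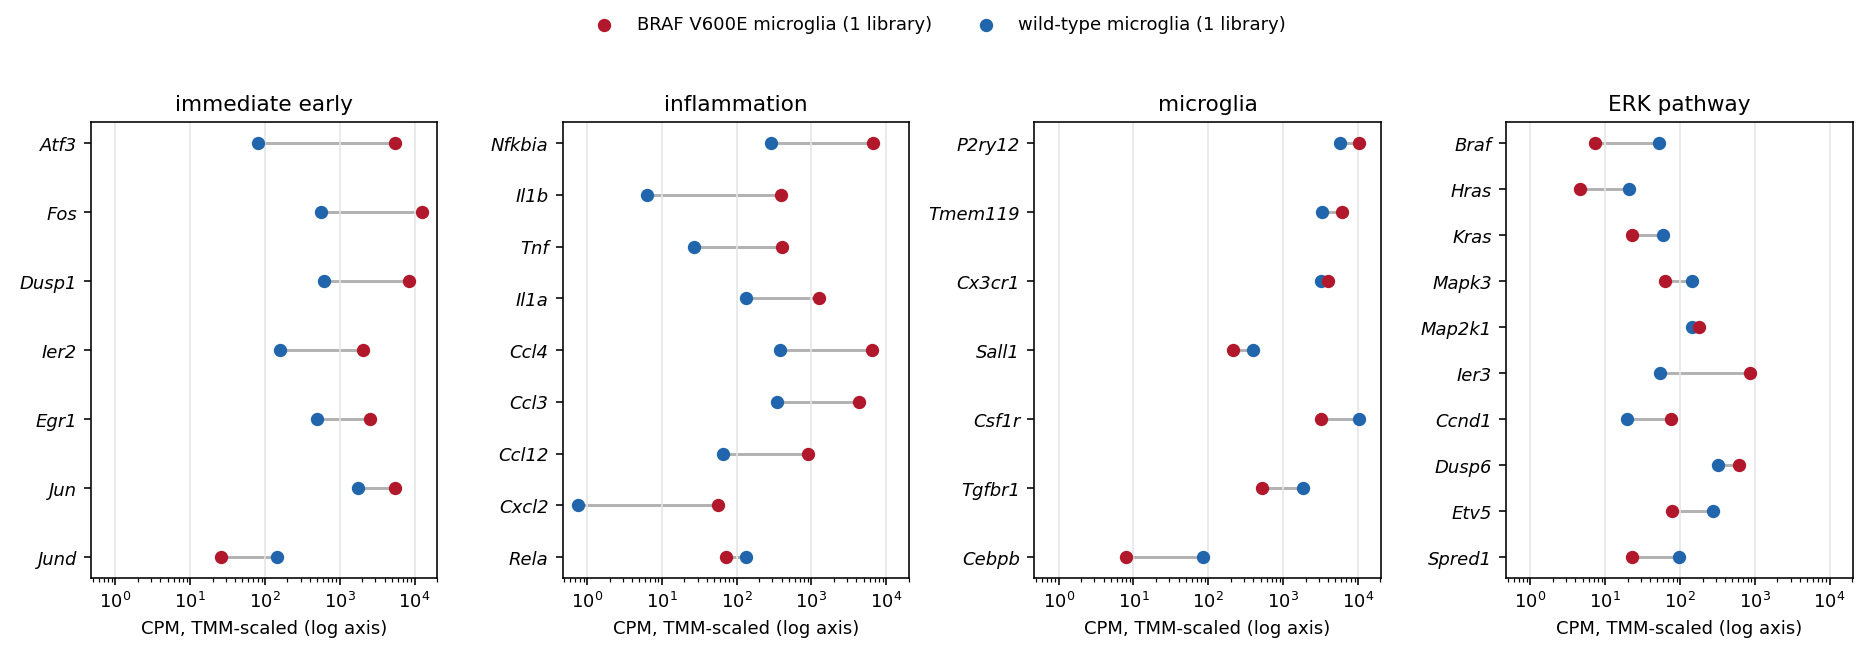
CPM (TMM-scaled, log axis) of single genes in the BRAF V600E microglia library (red) and the wild-type microglia library (blue), 1 library each, in 4 panels by gene group. Atf3, Fos, Nfkbia and Il1b lie far to the right in BRAF V600E, P2ry12 and Tmem119 lie within 2-fold, and Csf1r, Cebpb and Braf lie to the left.

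The promoters of 5 genes from the groups above are shown, with the letters of 2 well-known motifs marked. These 5 were picked with the ratios known and by no rule, and each holds a marked motif, which many other members of the groups do not. Each run covers 250 bases before and 50 bases after the start of the gene, 5′ to 3′ on the strand of the gene, from RefSeq on build GRCm38.p6. The start that RefSeq gives for Atf3 lies inside the span printed above, which covers all GENCODE M21 transcripts of the gene. Capitals mark TGACGT, the core of the cAMP response element that ATF and CREB proteins bind, or GGNNTTTCC, letters like those that NF-kB binds, each searched on both strands. The Atf3 promoter is chr1:191183284-191183583, minus strand; that of Fos is chr12:85473640-85473939, plus strand; that of Dusp1 is chr17:26508423-26508722, minus strand. The Nfkbia promoter is chr12:55492598-55492897, minus strand, and that of Cxcl2 is chr5:90903649-90903948, plus strand.
Atf3: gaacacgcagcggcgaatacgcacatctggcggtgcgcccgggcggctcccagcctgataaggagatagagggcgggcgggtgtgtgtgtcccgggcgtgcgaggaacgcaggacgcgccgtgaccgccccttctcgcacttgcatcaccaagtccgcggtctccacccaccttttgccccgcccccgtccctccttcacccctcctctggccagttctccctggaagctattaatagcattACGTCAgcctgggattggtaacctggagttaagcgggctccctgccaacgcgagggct
Fos: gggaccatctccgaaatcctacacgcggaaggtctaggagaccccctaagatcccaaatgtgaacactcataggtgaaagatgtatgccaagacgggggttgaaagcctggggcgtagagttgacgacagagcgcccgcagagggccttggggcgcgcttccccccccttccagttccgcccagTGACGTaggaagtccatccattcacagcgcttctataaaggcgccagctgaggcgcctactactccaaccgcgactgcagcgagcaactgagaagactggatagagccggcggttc
Dusp1: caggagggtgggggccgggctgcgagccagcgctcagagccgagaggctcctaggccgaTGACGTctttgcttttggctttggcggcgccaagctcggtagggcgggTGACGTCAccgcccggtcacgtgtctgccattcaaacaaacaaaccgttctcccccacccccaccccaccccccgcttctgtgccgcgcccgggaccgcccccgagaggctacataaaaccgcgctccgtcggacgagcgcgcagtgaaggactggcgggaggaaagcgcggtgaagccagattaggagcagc
Nfkbia: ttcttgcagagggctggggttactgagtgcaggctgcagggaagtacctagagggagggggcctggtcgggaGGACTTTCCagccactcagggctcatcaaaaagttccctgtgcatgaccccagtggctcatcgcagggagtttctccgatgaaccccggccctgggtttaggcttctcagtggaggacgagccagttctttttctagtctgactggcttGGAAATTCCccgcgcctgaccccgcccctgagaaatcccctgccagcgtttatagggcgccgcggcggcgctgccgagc
Cxcl2: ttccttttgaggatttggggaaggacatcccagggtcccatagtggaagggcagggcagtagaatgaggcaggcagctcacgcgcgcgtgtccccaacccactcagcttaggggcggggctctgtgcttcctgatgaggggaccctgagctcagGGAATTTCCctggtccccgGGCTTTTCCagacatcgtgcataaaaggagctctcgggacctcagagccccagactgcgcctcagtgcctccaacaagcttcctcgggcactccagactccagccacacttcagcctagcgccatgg

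In these windows Atf3 holds ACGTCA, the motif read on the other strand, at positions -8 to -3 from the start. Fos holds TGACGT at -66 to -61. Dusp1 holds it at positions -191 to -186 and again at -143 to -138, where a match on the other strand at -141 to -136 overlaps it. Nfkbia holds GGACTTTCC and, on the other strand, GGAAATTCC, while Cxcl2 holds GGAATTTCC and GGCTTTTCC, both within 100 bases before the start. Of 27025 promoters of this length, 7.65% held TGACGT and 5.72% held the kappaB-like letters. Among genes 4-fold higher in BRAF V600E with a promoter in the table, 23 of 166 (13.9%) held TGACGT, beside 38 of 327 (11.6%) of genes 4-fold lower and 13.6% of all genes at 10 CPM. The kappaB-like letters were in 18 of 166 higher genes (10.8%), 19 of 327 lower genes (5.81%) and 6.16% of genes at 10 CPM. By list, the kappaB-like letters were found for 9 of 19 NF-kB and inflammatory genes and 6 of 12 chemokine genes, and TGACGT for 5 of 17 immediate early genes. A match of letters is a description and does not show binding in these cells.

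Most interferon response and antigen presentation genes were 2-fold higher in BRAF V600E before length correction. Of 30 type I interferon response genes 29 reached 1 CPM, 20 of 29 were 2-fold higher and 1 of 29 lower, with a median of 1.85 (1.18 length-corrected). Ifitm3, a membrane protein that blocks virus entry, had 125 CPM in BRAF V600E against 17.1 CPM in wild type, 7.30-fold (6.76 to 7.89) higher. Oas1a, a sensor of double-stranded RNA, had 40.5 CPM in BRAF V600E against 6.69 CPM in wild type, and Ifit3 had 53.5 CPM in BRAF V600E against 10.3 CPM in wild type. The transcription factor gene Irf7, chosen after its values were seen, stood at 38.5 CPM in BRAF V600E against 10.7 CPM in wild type, with a log2 ratio of 1.85 (1.82 length-corrected). Ifit2, also chosen after its values were seen, was the member that went 2-fold the other way, at 6.20 CPM in BRAF V600E against 13.4 CPM in wild type.

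MHC class II genes, which present antigen to CD4 T cells, were 2-fold higher in 8 of 9 cases, with a median of 2.07. These genes are short, and the length-corrected median was 0.92, with 3 of 9 still 2-fold higher. H2-Aa had 504 CPM in BRAF V600E against 60.1 CPM in wild type, 8.39-fold (8.05 to 8.73) higher, and H2-Eb1 had 386 CPM in BRAF V600E against 42.1 CPM in wild type, 9.17-fold (8.74 to 9.62) higher. Cd74, the invariant chain, was at 917 CPM in BRAF V600E against 218 CPM in wild type. Dendritic cells also carry much class II. Their marker list summed to 3583 CPM in BRAF V600E and 1546 CPM in wild type, nearly all of it Siglech, which microglia also express. Of the 9 dendritic cell markers measured, 6 were 2-fold higher in BRAF V600E and 1 lower, with a length-corrected median of 1.59. Apart from Siglech, Cd209a, chosen after its values were seen, had 6.54 CPM in BRAF V600E against 0.612 CPM in wild type. The part of such cells in the class II difference was not tested. MHC class I and peptide loading genes had a median of 1.36 (0.76 length-corrected), with 9 of 14 2-fold higher and none lower. B2m, the light chain of class I molecules, stood at 5569 CPM in BRAF V600E against 1205 CPM in wild type, and H2-D1 at 4378 CPM in BRAF V600E against 965 CPM in wild type. Reads of the near-identical H2-Q6 and H2-Q7 could have been divided between them in counting, and their values are uncertain.

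Homeostatic microglia markers were high in both libraries. All 14 exceeded 100 CPM on each side and together held 74662 CPM in BRAF V600E and 45279 CPM in wild type, more than in any other library of the series, where the highest sum was 15387 CPM. P2ry12, a purine receptor of process movement, stood at 10386 CPM in BRAF V600E against 5775 CPM in wild type, and Tmem119 at 6116 CPM in BRAF V600E against 3353 CPM in wild type. Their log2 ratios of 0.85 and 0.87 became 0.0 and -0.11 after length correction, so no direction is given for them. Cx3cr1, the fractalkine receptor, had 3963 CPM in BRAF V600E against 3248 CPM in wild type. The median of the 14 genes was 0.90, 0.16 length-corrected and -0.04 with TPM computed without Gm23935. Sall1, a transcription factor of microglia identity, was at 214 CPM in BRAF V600E against 391 CPM in wild type.

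The CSF1 and TGF-beta receptor genes stood on the lower side. Csf1r, the receptor for CSF1 and interleukin-34, had 3186 CPM in BRAF V600E microglia and 10230.0 CPM in wild-type microglia, 3.21-fold (3.19 to 3.23) lower, with a log2 ratio of -1.68 (-1.03 length-corrected). Tgfbr1 and Tgfbr2 encode the subunits of the TGF-beta receptor: Tgfbr1 had 529 CPM in BRAF V600E against 1839 CPM in wild type, 3.48-fold (3.42 to 3.53) lower, and Tgfbr2 had 178 CPM in BRAF V600E against 615 CPM in wild type, 3.46-fold (3.36 to 3.56) lower. Their log2 ratios of -1.80 and -1.79 were -1.11 and -0.92 length-corrected. Smad3, which carries the signal to the nucleus, was at 40.5 CPM in BRAF V600E against 111 CPM in wild type, and Smad7, a feedback inhibitor of the pathway, at 14.5 CPM in BRAF V600E against 51.1 CPM in wild type. The length-corrected log2 ratios of Smad3 and Smad7 were -0.88 and -1.55. Of 19 listed genes of both pathways 15 reached 1 CPM, 0 of 15 were 2-fold higher and 8 of 15 lower, with a median of -1.16 (-0.76 length-corrected). After length correction 4 of 15 were 2-fold lower, where all genes gave 20.6%, and Nrros was 2-fold higher.

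Transcription factors of microglia identity were divided. Of 17 listed genes of this group, which includes the TGF-beta receptors, 1 was 2-fold higher and 6 were lower, and the median of 0.03 turned negative with library size alone, with TPM and after length correction (-0.09). After length correction 3 were 2-fold higher, Mef2c (1.40), Runx1 (1.27) and Maf (1.24). Lower by 2-fold were then 3 as well, Cebpa (-2.70), Bhlhe41 (-1.41) and Tgfbr1 (-1.11). Spi1, which encodes PU.1, had 655 CPM in BRAF V600E against 245 CPM in wild type and was chosen after its values were seen. Mef2a had 198 CPM in BRAF V600E against 611 CPM in wild type, 3.09-fold (3.01 to 3.18) lower, but its length-corrected log2 ratio was -0.72. Bhlhe41, a regulator of the cell state of tissue macrophages, had 40.9 CPM in BRAF V600E against 181 CPM in wild type, 4.43-fold (4.18 to 4.70) lower. Cebpa had 20.2 CPM in BRAF V600E against 76.6 CPM in wild type, 3.79-fold (3.49 to 4.13) lower. Cebpb, a related factor that is usually induced in inflammation (ENSMUSG00000056501.3, chromosome 2, 167688915 to 167690418, plus strand), was far lower, at 7.95 CPM in BRAF V600E against 84.3 CPM in wild type, 10.6-fold (9.34 to 12.1) lower, and its log2 ratio of -3.40 was -4.69 length-corrected and -3.78 after correction for length and GC content.

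Braf itself (ENSMUSG00000002413.15, chromosome 6, 39603237 to 39725463, minus strand) had 235 counts in BRAF V600E and 2370 in wild-type microglia, or 7.22 CPM in BRAF V600E against 51.8 CPM in wild type. This was 7.18-fold (6.28 to 8.24) lower, a log2 ratio of -2.84 that became -1.91 after length correction and -2.26 after correction for length and GC content. Counts per gene do not show which allele was read and so do not check the mutation. Of 18 genes of RAS, RAF, MEK and ERK kinases and their partners, 0 of 18 were 2-fold higher and 10 of 18 lower, with a median of -1.03 (-0.30 length-corrected, with 6 of 18 lower and 1 higher). Hras had 4.67 CPM in BRAF V600E against 20.8 CPM in wild type, 4.46-fold (3.76 to 5.33) lower, and Grb2, an adaptor between receptors and RAS, had 24 CPM in BRAF V600E against 105 CPM in wild type, 4.39-fold (4.07 to 4.74) lower. Mapk3, the gene of ERK1, had 62.5 CPM in BRAF V600E against 143 CPM in wild type. The MEK genes differed less: Map2k1 stood at 177 CPM in BRAF V600E against 145 CPM in wild type and Map2k2 at 151 CPM in BRAF V600E against 78.1 CPM in wild type. Mapk3, Map2k1 and Map2k2 were chosen after their values were seen.

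Targets and feedback inhibitors of ERK went both ways. Of 19 listed, 12 reached 1 CPM. Of these, 5 of 12 were 2-fold higher and 4 of 12 lower, beside 27.3% and 24.7% of all genes at 1 CPM. After length correction 2 of 12 were higher and 4 of 12 lower, where all genes gave 15.7% and 20.6%. The list median of 0.12 was -0.09 length-corrected and -0.51 with library size alone. Ier3 had 854 CPM in BRAF V600E against 54.4 CPM in wild type, 15.7-fold (15.1 to 16.4) higher, and Ccnd1, which encodes cyclin D1, had 75.6 CPM in BRAF V600E against 19.4 CPM in wild type, 3.91-fold (3.62 to 4.22) higher. Dusp6, the phosphatase that acts on ERK, had 621 CPM in BRAF V600E against 320.1 CPM in wild type and was chosen after its values were seen. Spry1, chosen in the same way, had 22.85 CPM in BRAF V600E against 7.76 CPM in wild type. Its log2 ratio of 1.55 was 0.91 length-corrected. On the other side Etv5, an ERK-induced transcription factor, had 77.1 CPM in BRAF V600E against 275 CPM in wild type, 3.57-fold (3.42 to 3.73) lower. Spred1, an inhibitor of RAS, had 22.6 CPM in BRAF V600E against 97.4 CPM in wild type, and Dusp7, another ERK phosphatase, had 19.7 CPM in BRAF V600E against 123 CPM in wild type, 6.21-fold (5.73 to 6.75) lower. Spry4 had 0 counts in BRAF V600E and under 1 CPM in wild type, and Spry2 and Dusp4 stayed below 1 CPM on both sides; these 3 feedback inhibitors, chosen after their values were seen, are given no fold.

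Genes of disease-associated microglia, a state described around amyloid plaques and in neurodegeneration, were mostly higher in BRAF V600E, but less clearly so after length correction. Of 25 measured, 15 were 2-fold higher and 2 lower, with a median of 1.19; after length correction 10 were higher, 2 were lower and the median was 0.41. Apoe, the lipid carrier, had 3582 CPM in BRAF V600E against 465 CPM in wild type, 7.70-fold (7.59 to 7.82) higher, and a length-corrected log2 ratio of 1.84. Spp1, which encodes osteopontin, had 18.6 CPM in BRAF V600E against 1.79 CPM in wild type, and the lectin gene Lgals3 had 27.9 CPM in BRAF V600E against 4.85 CPM in wild type. Trem2, the receptor needed for this state in mouse models, had 2440.1 CPM in BRAF V600E against 1096 CPM in wild type, with a log2 ratio of 1.15 (1.80 length-corrected). Cst7 and Lpl, markers of the state chosen after their values were seen, had length-corrected log2 ratios of 0.12 and 1.16. Timp2, an inhibitor of metalloproteinases, was lower, at 106 CPM in BRAF V600E against 537 CPM in wild type, 5.09-fold (4.91 to 5.28) lower.

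The list of genes linked to Langerhans cell histiocytosis had 14 of 17 members at 1 CPM, 10 of them 2-fold higher and 2 lower, with a median of 1.91 (1.53 length-corrected). Most stayed below 10 CPM. Cd300lf, an inhibitory receptor, had 23.8 CPM in BRAF V600E against 1.95 CPM in wild type, 12.2-fold (9.83 to 15.4) higher, and Mmp9, a gelatinase chosen after its values were seen, had 8.72 CPM in BRAF V600E against 0.240 CPM in wild type. Cd207, which encodes langerin, stood at 0.123 CPM in BRAF V600E against 0 CPM in wild type on 4 counts in BRAF V600E and none in wild type, too few for a fold. The members above 100 CPM in a library were Csf1r and Bcl2l1, both lower, and the endotoxin co-receptor gene Cd14, at 1514 CPM in BRAF V600E against 271 CPM in wild type, 5.59-fold (5.48 to 5.70) higher.

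Phagocyte genes went both ways, also within single lists. The C1q genes of complement, which mark synapses and debris, were higher: C1qb had 20874 CPM in BRAF V600E against 6220.1 CPM in wild type and C1qc had 15441 CPM in BRAF V600E against 4569.6 CPM in wild type, though their log2 ratios of 1.75 and 1.76 were 0.39 and 0.60 length-corrected. After correction for length and GC content these ratios were 0.86 and 1.12. C5ar1, the receptor for C5a, had 617 CPM in BRAF V600E against 145 CPM in wild type, 4.25-fold (4.14 to 4.37) higher. Of 15 complement genes measured, 10 were 2-fold higher and 2 lower (6 and 1 length-corrected). Of 17 scavenger and efferocytosis receptors measured, which take up lipoproteins and dying cells, 3 were 2-fold higher and 6 lower, but 5 higher and 3 lower after length correction. Among them Itgb5 had 439 CPM in BRAF V600E against 1998 CPM in wild type, 4.55-fold (4.47 to 4.63) lower, and Itgav, its partner integrin chain, had 44.5 CPM in BRAF V600E against 184 CPM in wild type, 4.12-fold (3.90 to 4.36) lower. The receptor kinase gene Mertk, chosen after its values were seen, had 246 CPM in BRAF V600E against 626 CPM in wild type. The scavenger receptor gene Msr1 was higher, at 17.9 CPM in BRAF V600E against 2.71 CPM in wild type, 6.59-fold (5.42 to 8.07) higher. The Toll-like receptor list had 14 genes measured, 3 of them 2-fold higher and 5 lower (1 and 4 length-corrected). The 3 higher were Cd14, Ly96 and Myd88, with log2 ratios of 2.48, 1.87 and 1.70 (1.20, 0.49 and 0.89 length-corrected). Among the receptors themselves Tlr5, which binds flagellin, had 2.43 CPM in BRAF V600E against 15.8 CPM in wild type and Tlr9, which binds CpG DNA, had 2.52 CPM in BRAF V600E against 10.3 CPM in wild type, both lower.

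Lysosomal genes had a median of 1.05 (0.61 length-corrected), with 15 of 28 2-fold higher and 3 of 28 lower. The cathepsin genes Ctss and Ctsl had the highest ratios of the list on the TMM scale: Ctss had 24124 CPM in BRAF V600E against 5743 CPM in wild type and Ctsl had 2702 CPM in BRAF V600E against 619 CPM in wild type, with log2 ratios of 0.72 and 1.0 length-corrected. After length correction the cathepsin genes Ctsh, Ctsa and Ctsc, chosen after their values were seen, stood higher, at 2.08, 1.98 and 1.88. Lamp1, a membrane protein of the lysosome, was lower, at 248 CPM in BRAF V600E against 1318 CPM in wild type, 5.30-fold (5.18 to 5.43) lower, and -3.22 length-corrected. Of metalloproteinases and their inhibitors, 7 of 11 were 2-fold lower and 2 higher, with a median of -1.08 (-1.0 length-corrected). Adam10, a shedding protease, had 97.6 CPM in BRAF V600E against 431 CPM in wild type, 4.42-fold (4.26 to 4.59) lower, and Adam17, which releases soluble tumour necrosis factor, had 71.5 CPM in BRAF V600E against 239 CPM in wild type, 3.34-fold (3.19 to 3.49) lower.

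Cell cycle inhibitors and genes linked to senescence were more often higher than lower. Of 23 listed, 20 reached 1 CPM, 13 were 2-fold higher and 1 lower, with a median of 1.65 (0.76 length-corrected, with 7 higher and 1 lower). Gadd45b, a stress gene also driven by NF-kB, had 279 CPM in BRAF V600E against 5.58 CPM in wild type, 50.04-fold (44.2 to 56.9) higher. Cdkn1a, which encodes the cell cycle inhibitor p21, had 50.8 CPM in BRAF V600E against 13.9 CPM in wild type, 3.66-fold (3.34 to 4.02) higher, and its log2 ratio of 1.87 was 0.82 length-corrected. Cdkn2a, the gene of p16 and ARF, had 1 count in BRAF V600E and 2 in wild type and was at the floor in both libraries. Of 35 secretory factors linked to senescence and measured, 25 were 2-fold higher and 3 lower (17 and 3 length-corrected). Many of these are the cytokines and chemokines above. Beside them Gdf15, a stress-induced member of the TGF-beta family, had 88.3 CPM in BRAF V600E against 4.04 CPM in wild type, 21.8-fold (18.8 to 25.5) higher.

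Mitotic genes were low on both sides. Mki67, the gene of the Ki-67 antigen, had 0.522 CPM in BRAF V600E against 0.896 CPM in wild type and Top2a had 1.29 CPM in BRAF V600E against 1.64 CPM in wild type, while Aurka, a mitotic kinase, had 4.52 CPM in BRAF V600E against 1.29 CPM in wild type and Ube2c had 2.03 CPM in BRAF V600E against 0.284 CPM in wild type. These 4 genes were chosen after their values were seen. The cell cycle list had a median of 0.64 (0.46 length-corrected, -0.18 with TPM computed without Gm23935), with 10 of 33 2-fold higher and 5 of 33 lower, beside 27.3% and 24.7% of all genes at 1 CPM. Stmn1, a regulator of microtubules, had 44.1 CPM in BRAF V600E against 9.75 CPM in wild type, and the replication gene Mcm2 had 2.46 CPM in BRAF V600E against 10.9 CPM in wild type. Of survival genes, Bcl2a1b, an NF-kB target, had 309.9 CPM in BRAF V600E against 39.7 CPM in wild type; it shares reads with Bcl2a1a and Bcl2a1d, which are near-identical, so the 3 values are uncertain. Bcl2 itself, chosen after its values were seen, had 4.05 CPM in BRAF V600E against 10.9 CPM in wild type.

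Oxidative phosphorylation subunits make up the respiratory chain and ATP synthase. Of 33 such genes, 30 were 2-fold higher in BRAF V600E and none lower, with a median of 1.42, but after length correction 7 of 33 were 2-fold higher and the median was 0.32. Sdhc, a subunit of succinate dehydrogenase, had 150.0 CPM in BRAF V600E against 21.8 CPM in wild type, and Atp5b, a subunit of ATP synthase, had 1025 CPM in BRAF V600E against 294 CPM in wild type, and both stayed above 2.00 on the log2 scale after length correction. Mitochondrially encoded genes had a median of 2.13 (0.82 length-corrected), and mt-Cytb, the cytochrome b gene, had 5505 CPM in BRAF V600E against 1019.7 CPM in wild type. Their ratios were uneven along the same genome: mt-Nd2 had 625 CPM in BRAF V600E against 687 CPM in wild type and mt-Nd4 had 894 CPM in BRAF V600E against 643 CPM in wild type, both chosen after their values were seen.

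Of 22 glycolysis and hypoxia genes measured, 11 were 2-fold higher and 2 lower, with a median of 0.92 (0.83 length-corrected, -0.03 with TPM computed without Gm23935). The glycolytic enzyme genes Eno1, at 997 CPM in BRAF V600E against 292 CPM in wild type, and Tpi1, at 274 CPM in BRAF V600E against 68.2 CPM in wild type, were higher, while Hif1a, the hypoxia-inducible factor, was lower, at 28.6 CPM in BRAF V600E against 136 CPM in wild type, 4.77-fold (4.46 to 5.12) lower. Cholesterol synthesis and efflux genes had a median of -0.80 (-0.36 length-corrected), with 4 higher and 8 lower of 21. Hmgcs1, an enzyme of cholesterol synthesis, had 7.62 CPM in BRAF V600E against 26.8 CPM in wild type. Unfolded protein response genes, 10 of 18 of them 2-fold higher, had a median of 1.12 (0.26 length-corrected), and Manf, a secreted factor of this response, had 205 CPM in BRAF V600E against 47.8 CPM in wild type. Heat shock chaperones, 9 of 15 of them 2-fold higher, had a median of 1.18 (0.51 length-corrected). Hspa8 had the highest ratio of them, at 3401 CPM in BRAF V600E against 815 CPM in wild type. The stress-induced Hspa1b was lower, at 76 CPM in BRAF V600E against 266 CPM in wild type, though its reads could not be separated with certainty from the near-identical Hspa1a.

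**Figure D3:**
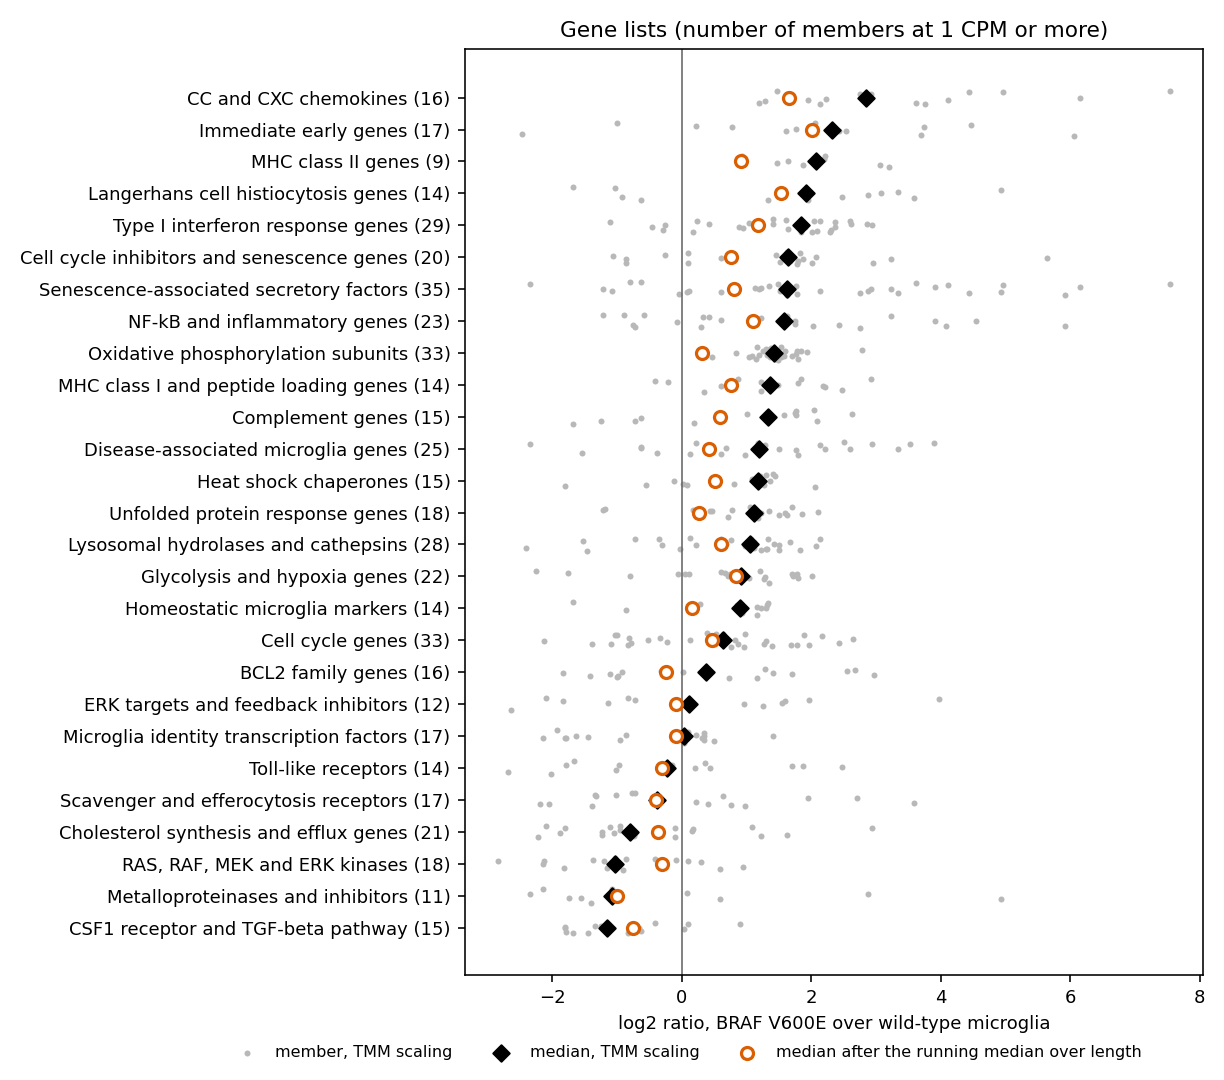
Log2 ratio of BRAF V600E over wild-type microglia for members of each gene list (grey points), with each list's median on the TMM scale (black diamonds) and after the running median over gene length (orange circles). Of the lists drawn, which leave out markers of other cell types, those of chemokine, immediate early, histiocytosis, NF-kB and interferon genes keep a median above 1 after the correction, while that of oxidative phosphorylation subunits is 0.32.

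The largest differences that held on all 4 scales were chosen by rule, 12 in each direction. The higher 12 were Ttr, Ccl8, Ctsk, Cxcl2, Atf3, Il1b, Acp5, Gadd45b, Tnfsf9, Sirpb1a, Nfkbia and Fos. Ctsk and Acp5, a cathepsin and an acid phosphatase best known from osteoclasts, were close to absent from the wild-type library: Ctsk had 19.9 CPM in BRAF V600E against 0.0875 CPM in wild type on 4 wild-type counts, and Acp5 had 14 CPM in BRAF V600E against 0.197 CPM in wild type. Tnfsf9, the ligand of the receptor 4-1BB, had 78.3 CPM in BRAF V600E against 1.86 CPM in wild type, 42.1-fold (33.9 to 52.9) higher. Sirpb1a had 13.3 CPM in BRAF V600E against 0.350 CPM in wild type and may share reads with its near-identical paralogs. Ttr, which encodes transthyretin and is made in the brain by choroid plexus, had 650 counts in BRAF V600E and 1 in wild type.

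The lower 12 were Kcnk12, Gsk3a, Upf1, Mir6236, Dagla, Ctbp1, Cebpb, Gpam, Chst1, Lrrc47, Smap1 and Sox4. Upf1, the helicase of nonsense-mediated decay (ENSMUSG00000058301.8, chromosome 8, 70331525 to 70353278, minus strand), had 5.56 CPM in BRAF V600E against 95.2 CPM in wild type, 17.1-fold (14.8 to 19.98) lower. Gsk3a, a kinase of glycogen metabolism, had 0.676 CPM in BRAF V600E against 17.2 CPM in wild type, 25.4-fold (16.7 to 40.8) lower, and Kcnk12, a potassium channel gene, had 0.768 CPM in BRAF V600E against 20.1 CPM in wild type, 26.2-fold (17.6 to 40.7) lower. Ctbp1, a transcriptional co-repressor, had 6.79 CPM in BRAF V600E against 81.6 CPM in wild type, 12-fold (10.5 to 13.8) lower. Dagla, which makes the endocannabinoid 2-AG, had 2.79 CPM in BRAF V600E against 34.8 CPM in wild type, and Gpam, an enzyme of triglyceride synthesis, had 2.36 CPM in BRAF V600E against 24.7 CPM in wild type. Sox4, a transcription factor, had 7.56 CPM in BRAF V600E against 67.8 CPM in wild type.

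Markers of other cell types summed to less than those of microglia. Those of T and NK cells came to 1.75 CPM in BRAF V600E and 1.05 CPM in wild type, with Cd8a and Gzma at 0 in both. Neutrophil markers summed to 288 CPM in BRAF V600E and 489 CPM in wild type, nearly all of it Csf3r, and Ly6g was at 0 in both. Of the 5 neutrophil markers measured, 2 were 2-fold higher and none lower (1 and 1 length-corrected). Classical monocyte markers summed to 54.8 CPM in BRAF V600E and 26 CPM in wild type. Of the 7 measured, 4 were 2-fold higher and 1 lower (3 and 1 length-corrected). Hp, not among the 7, had 0 counts in BRAF V600E and 7 in wild type. Border macrophage markers summed to 396 CPM in BRAF V600E and 595 CPM in wild type, with Lyve1 at 0 in BRAF V600E. Most of that sum was Stab1, at 172 CPM in BRAF V600E against 433 CPM in wild type, and Maf, at 178 CPM in BRAF V600E against 140 CPM in wild type. Of the 10 border macrophage markers measured, 4 were 2-fold higher and 1 lower, and the length-corrected median was 1.03. Within these lists Ms4a7 and Ms4a4c stood out: Ms4a7 had 18.6 CPM in BRAF V600E against 1.29 CPM in wild type and Ms4a4c had 26 CPM in BRAF V600E against 2.54 CPM in wild type. Neuron markers summed to 33.4 CPM in BRAF V600E and 7.35 CPM in wild type, with 7 of 9 2-fold higher, none lower, and Snap25 at 17.7 CPM in BRAF V600E against 2.93 CPM in wild type. Choroid plexus and ependymal markers summed to 28.7 CPM in BRAF V600E and 0.197 CPM in wild type, all from Ttr, Enpp2, Folr1, Clic6 and Kl. The part of reads from choroid plexus in the Ttr difference was not tested. Astrocyte markers summed to 219.8 CPM in BRAF V600E and 132.6 CPM in wild type, with 4 of 5 measured 2-fold higher and none lower. Patrolling monocyte markers summed to 238 CPM in BRAF V600E and 77.5 CPM in wild type, with 6 of 8 2-fold higher and none lower.

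**Figure D4:**
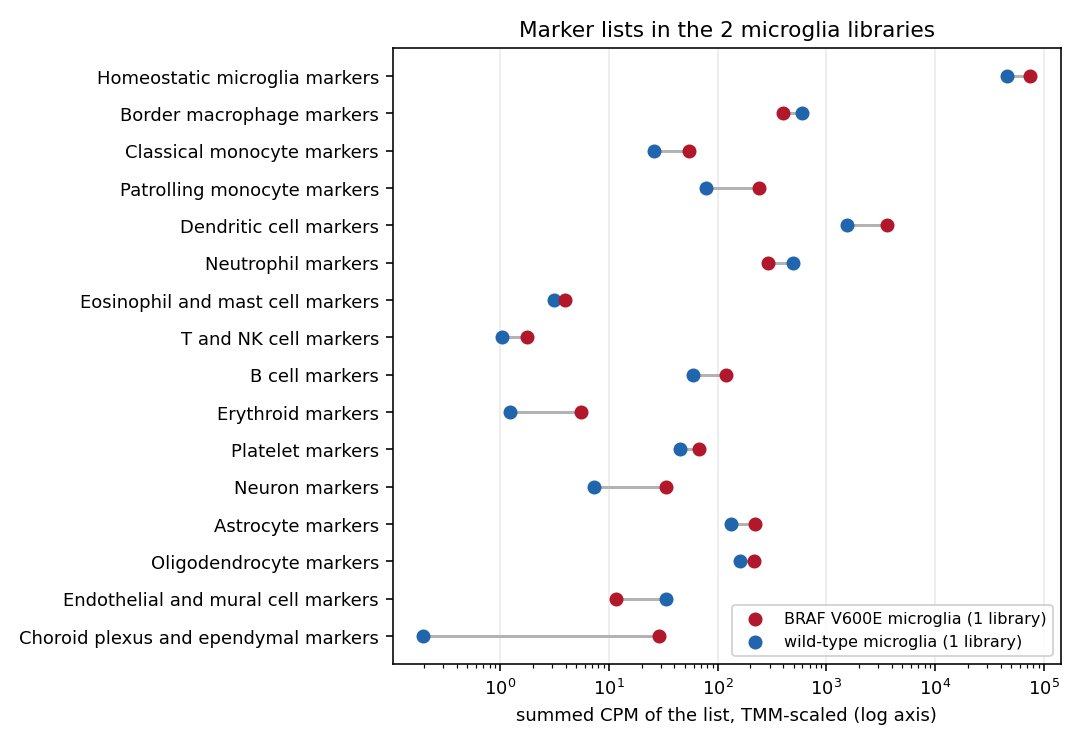
Summed CPM (TMM-scaled, log axis) of marker lists in the BRAF V600E microglia library (red) and the wild-type microglia library (blue), 1 library each. Homeostatic microglia markers sum highest on both sides, and choroid plexus and neuron markers differ most to the BRAF V600E side.

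The same contrast in the other cell types of the series gave sets of genes that overlapped in part with those of microglia. In monocytes 534 of 8377 genes (6.37%) were 4-fold higher in BRAF V600E and 51 (0.609%) lower, and in intravascular macrophages 1579 of 9565 (16.5%) were higher and 1256 (13.1%) lower. Among 7091 genes measured at 10 CPM in both microglia and monocytes, 58 were 4-fold higher in both, which is 29.7% of the 195 higher in microglia and 18.4% of the 315 higher in monocytes, where 4.44% of the 7091 genes were higher in monocytes. With intravascular macrophages 45 of 8041 genes were higher in both, 21.3% of the 211 of microglia and 3.27% of the 1376 of the macrophages, near the 17.1% of the 8041 genes that were higher in the macrophages. Of genes lower in microglia, 3 of 285 (1.05%) were also lower in monocytes, where 0.282% of the 7091 genes, 20 in all, were lower. In intravascular macrophages 80 of 340 (23.5%) were also lower, where 5.29% of the 8041 genes were, and 66 of the 340 (19.4%) were 4-fold higher, near the 17.1% of all. Lymphoid, neutrophil and microglia marker reads moved with these contrasts: markers of T and NK cells came to 2.80 CPM in BRAF V600E and 5405 CPM in wild-type intravascular macrophages, and neutrophil markers to 57295 CPM in BRAF V600E and 1982 CPM in wild-type monocytes. Homeostatic microglia markers, Csf1r among them, came to 15387 CPM in BRAF V600E and 3852 CPM in wild-type intravascular macrophages. Spearman's rho of the BRAF V600E intravascular macrophages was 0.803 with wild-type microglia and 0.616 with wild-type intravascular macrophages. The part of such reads was not tested. Differences between cell types were not tested, since each has 1 library per genotype.

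Several chemokine and cytokine genes were higher in BRAF V600E monocytes too. Cxcl2 had 1709.6 CPM in BRAF V600E monocytes against 0.466 CPM in wild-type monocytes and 86.7 CPM in BRAF V600E intravascular macrophages against 1.88 CPM in wild-type ones. Ccl4 had 705 CPM in BRAF V600E monocytes against 24.3 CPM in wild-type monocytes, but 188 CPM in BRAF V600E intravascular macrophages against 722 CPM in wild-type ones. Il1b had log2 ratios of 5.92 in microglia, 2.14 in monocytes and 0.46 in intravascular macrophages. Apoe was higher in all 3 cell types, with log2 ratios of 2.95, 1.82 and 2.55 in the same order. Immediate early genes differed among themselves in these cells. Atf3 had 66.5 CPM in BRAF V600E monocytes against 246 CPM in wild-type monocytes, and 137 CPM in BRAF V600E intravascular macrophages against 281 CPM in wild-type ones. Egr1 had 51.3 CPM in BRAF V600E monocytes against 7.33 CPM in wild-type monocytes, and 721 CPM in BRAF V600E intravascular macrophages against 266 CPM in wild-type ones. The log2 ratio of Fos was 4.46 in microglia, -1.45 in monocytes and 0.25 in intravascular macrophages. Csf1r, lower in BRAF V600E microglia, had log2 ratios of -0.17 in monocytes and 2.37 in intravascular macrophages, and Etv5 had 4.27 and 3.49. Cebpb was lower in intravascular macrophages as well, at 9.79 CPM in BRAF V600E intravascular macrophages against 429 CPM in wild-type ones, while in monocytes its log2 ratio was 0.37. On the TMM scale Braf had log2 ratios of -2.84 in microglia, -1.02 in monocytes and -0.76 in intravascular macrophages.

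**Figure D5:**
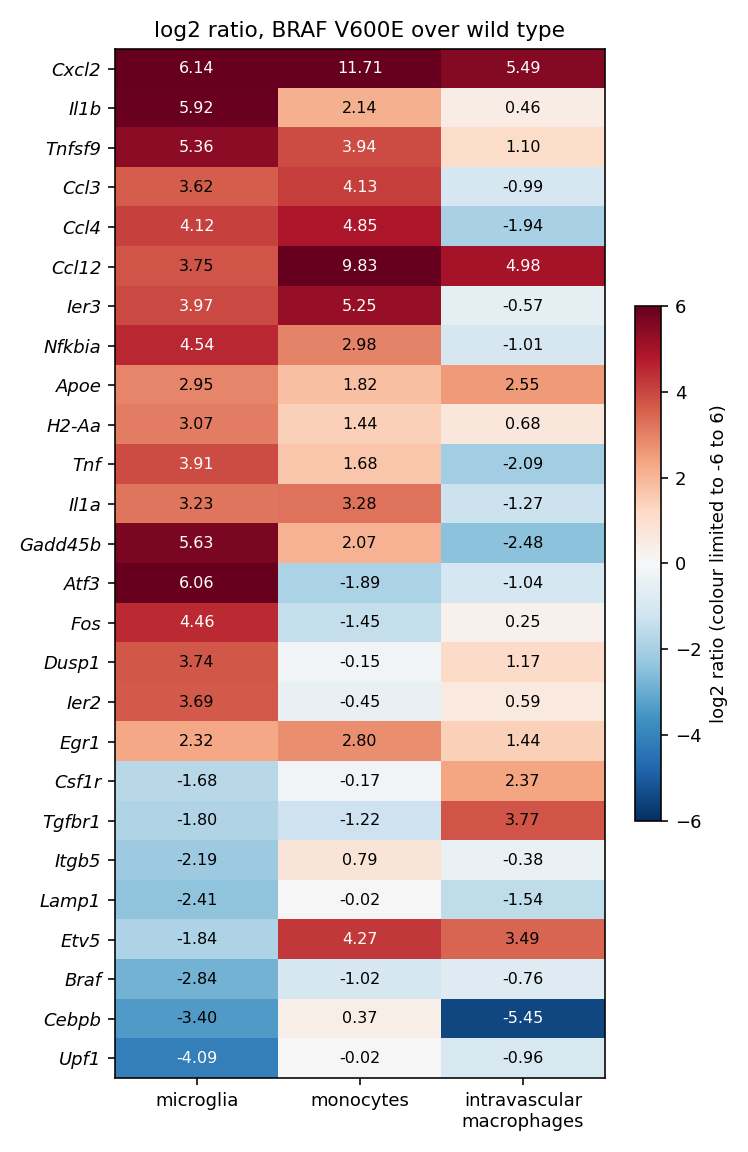
Log2 ratio of BRAF V600E over wild type of selected genes in microglia, monocytes and intravascular macrophages, 1 library per genotype and cell type, as printed in each cell (colour limited to -6 to 6). Atf3 reads 6.06, -1.89 and -1.04 across the row, and Cxcl2 6.14, 11.71 and 5.49.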

How the data were processed

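Sorted mouse monocytes, intravascular macrophages and microglia of both genotypes gave 1 library each, 6 in all. Raw counts and TPM (counts over gene length, scaled to a common sum) were deposited by the authors for each gene and library, per the file headers. The submitters' processing notes list bcl2fastq 2.20, Trimmomatic 0.37, STAR 2.5.2b, Subread 1.5.2 and the build mm10. Neither the role of each tool nor annotation or strandedness is given there, so reads of overlapping antisense genes cannot be told apart. Per the labels' protocols, cDNA was made with the SMART-Seq HT kit and libraries with Nextera XT.

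Of 49315 lines, 176 without a name (0.00507% of BRAF V600E and 0.0166% of wild-type microglia counts) and 26 with a date for a name (0.0892% and 0.104% in the same libraries) were left out. The 94 repeated symbols were summed, leaving 49016. Counts were scaled to CPM with edgeR 4.0.16 (R 4.3.3), with TMM factors from all 6 libraries (0.839 for BRAF V600E and 1.29 for wild-type microglia). Log2 ratios used a prior count of 2. Single folds carry exact conditional binomial 95% intervals; where both libraries were at or under a floor of 3 counts, no fold is given. Gene length came from the ratio of deposited counts to TPM and lay within 1% of the GENCODE M21 exon length for 88.1% of 27119 lines. The running median was taken over neighbouring genes in order of length; the alternative for length and GC content, added after seeing the data, used the longest GENCODE M21 transcript. Scripts were tested on simulated data.

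Named genes were the 12 largest ratios in each direction that passed 4-fold on 4 scales, leaving out predicted genes and pseudogenes, antigen receptor segments, and mitochondrial and ribosomal protein genes. To these came up to 5 members of each list at 10 CPM and 2-fold, plus Braf, Cdkn1a, Cdkn2a, Xist, Ddx3y and the homeostatic markers. A few of these are not reported here. The lists and genes were chosen with earlier results of these data known. Alternatives covered scaling (DESeq2 1.42.0 size factors included), TPM, length, count minimum, prior count and repeated symbols. With 1 library per group, no test was possible within microglia.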

Additional observations from a re-analysis of the deposited data

Results flagged for a closer look

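For 5 genes named above, BRAF V600E and wild type were 4-fold apart in one direction in microglia and in the other direction in another cell type, with at least 10 CPM in the higher library of both. These differences between cell types were not tested, because each rests on 1 library per genotype. Tnf had a log2 ratio of 3.91 in microglia and -2.09 in intravascular macrophages, and Gadd45b had 5.63 in microglia and -2.48 in intravascular macrophages. Spred1 had -2.10 in microglia and 2.08 in intravascular macrophages, and Bhlhe41 had -2.15 in microglia and 5.10 in intravascular macrophages. Homeostatic microglia markers also summed higher in the BRAF V600E than in the wild-type intravascular macrophages, and the part of such reads was not tested. Ifit3 had 2.37 in microglia and -2.08 in monocytes.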

How the results depend on the processing

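The counts of genes 4-fold apart, 249 higher and 408 lower in BRAF V600E microglia, depended on scale. Library size alone gave 87 higher and 1437 lower, TPM 153 higher and 384 lower, and TPM without Gm23935 66 higher and 1543 lower. Correction for length gave 262 higher and 325 lower, of which 91 and 188 were among the genes of the TMM scale; correction for length and GC content, added after seeing the data, gave 208 higher and 234 lower. A minimum of 1 CPM gave 629 higher and 736 lower, 100 CPM gave 114 and 81, and no minimum gave 1369 and 1506. Holding to 4 scales together left 46 higher and 146 lower. Other scalings, prior counts and the treatment of repeated symbols stayed within 1.5-fold of the counts given. Of 92 named genes 4-fold apart, 92 kept their direction with each scale run on them (91 of 91 without Gm23935), 67 stayed 4-fold apart with library size alone and 62 after length correction. The histiocytosis list median turned to -0.93 with a minimum of 100 CPM, which leaves 3 members. The causes were not tested. No paired analysis was possible because the comparison within microglia has 1 library on each side; a fit of a genotype effect shared by the 3 cell types was not run. Ratios on fewer than 10 counts, such as those of Ttr, Ccl8 and Ctsk, are limited by depth.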
